A study of Mus musculus with 2 samples.

Results

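The 10 genes followed here, Syt1, Syt4, Syt5, Syt7, Syt11, Syt13, Syt14, Sytl2, Sytl4 and Sytl5, code for synaptotagmins and synaptotagmin-like proteins. They were chosen from 1 gene family with earlier results of these data known, and they are not the whole family. Counts of members called beside the share of all genes are therefore a description. All 10 had a row in both count tables, out of 33038 genes listed in either. RevGel-seq, a single-cell RNA-seq preparation that couples each cell to a barcoded bead inside a gel that can be dissolved again, was applied to pancreatic islets of male C57BL/6J mice aged 8 weeks. The islets were a control preparation and carried no transgene or treatment according to the labels. The study's methods describe libraries 1 and 2 as technical replicates of that preparation with 10000 input cells each, so the spread between them holds no difference between animals. Islets were dissociated with trypsin, and the labels name islet cells as the cell type.

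Hormone granules leave an endocrine cell when calcium enters and the granule membrane fuses with the cell membrane. Synaptotagmins carry a membrane anchor and a pair of C2 domains. In some of them (Syt1, Syt5 and Syt7) these domains bind calcium and trigger fusion, while others (Syt11, Syt13 and Syt14) bind no calcium. Synaptotagmin-like proteins have C2 domains but no such anchor, and they hold granules at the cell membrane by binding the small GTPases Rab27a and Rab27b. Insulin, glucagon (Gcg), somatostatin (Sst) and pancreatic polypeptide (Ppy) are the products of beta, alpha, delta and gamma cells of the islet.

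Library 1 held 735 cells with 15931154 unique molecular identifiers (UMIs, each 1 captured transcript), and library 2 held 748 cells with 17440292. The tables shared 0 barcodes. A cell counted for a hormone when that hormone's transcripts (Ins1 plus Ins2 for insulin, or Gcg, Sst or Ppy) reached 1% of its UMIs. In library 1 and library 2, insulin alone reached it in 182 and 190 cells, Gcg alone in 182 and 174, Sst alone in 35 and 23, and Ppy alone in 54 and 68. Cells with Gcg and Ppy numbered 65 and 86, and cells with Sst and Ppy numbered 77 and 71. Cells with no hormone were called endothelial-marked (29 and 30) or leukocyte-marked (43 and 42) when they had at least 10 UMIs over 1 of these marker lists and fewer than 10 over the other.

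The groups were checked against genes other than the hormones. All 7 beta cell markers were highest in insulin only cells, 5 of 7 alpha markers in Gcg only cells, 3 of 5 delta markers in Sst only cells and 3 of 6 gamma markers in Ppy only cells. Lepr was at 0 in Sst only cells and Aqp3 at 0 in Ppy only cells. The summed beta list, led by Iapp, was 15248 and 15541 CPM (counts per 1000000 UMIs other than those of the hormones) in Sst only cells against 54311 and 55877 in insulin only cells. Of markers of cells outside the endocrine lineage, the summed acinar list was 312 and 154 CPM in Sst only cells and 6.64 to 19.9 in the other single-hormone groups, and the summed ductal list was 283 and 245 in Ppy only cells and 5.05 to 87.9 in the others. Cela1 gave 310 and 151 CPM of the acinar sum in Sst only cells, where Prss2, Cpa1 and Ctrb1 were each at or below 3.35. Spp1 gave 281 and 241 CPM of the ductal sum in Ppy only cells, where Krt19 and Sox9 were each at or below 3.52. The summed endothelial list was 536 and 50.3 CPM in Sst only cells and 29.1 to 224 in the other single-hormone groups. In library 1, Flt1, Kdr and Plvap gave 231, 163 and 65.9 CPM of that sum in Sst only cells. The summed leukocyte list was 160 and 6.705 CPM in Sst only cells and 79.9 and 292 in Ppy only cells. Insulin only cells had 123 and 158 CPM of it, and Gcg only cells 13.7 and 15.6. The part of cells outside the endocrine lineage in the values of these groups was not tested. Cells are therefore called here by their hormones and not by cell type.

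All levels are CPM, with Ins1, Ins2, Gcg, Sst and Ppy left out of the total. The 10 genes together held 0.203% of the remaining UMIs in each library. Over 51 pairs of a gene and a hormone group with at least 10 UMIs in each library, the libraries differed by a median of 0.14 on the log2 scale. The level of a gene in a summed group cannot tell fewer expressing cells from less RNA per cell. p-values measure the spread between technical libraries only.

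**Figure D1:**
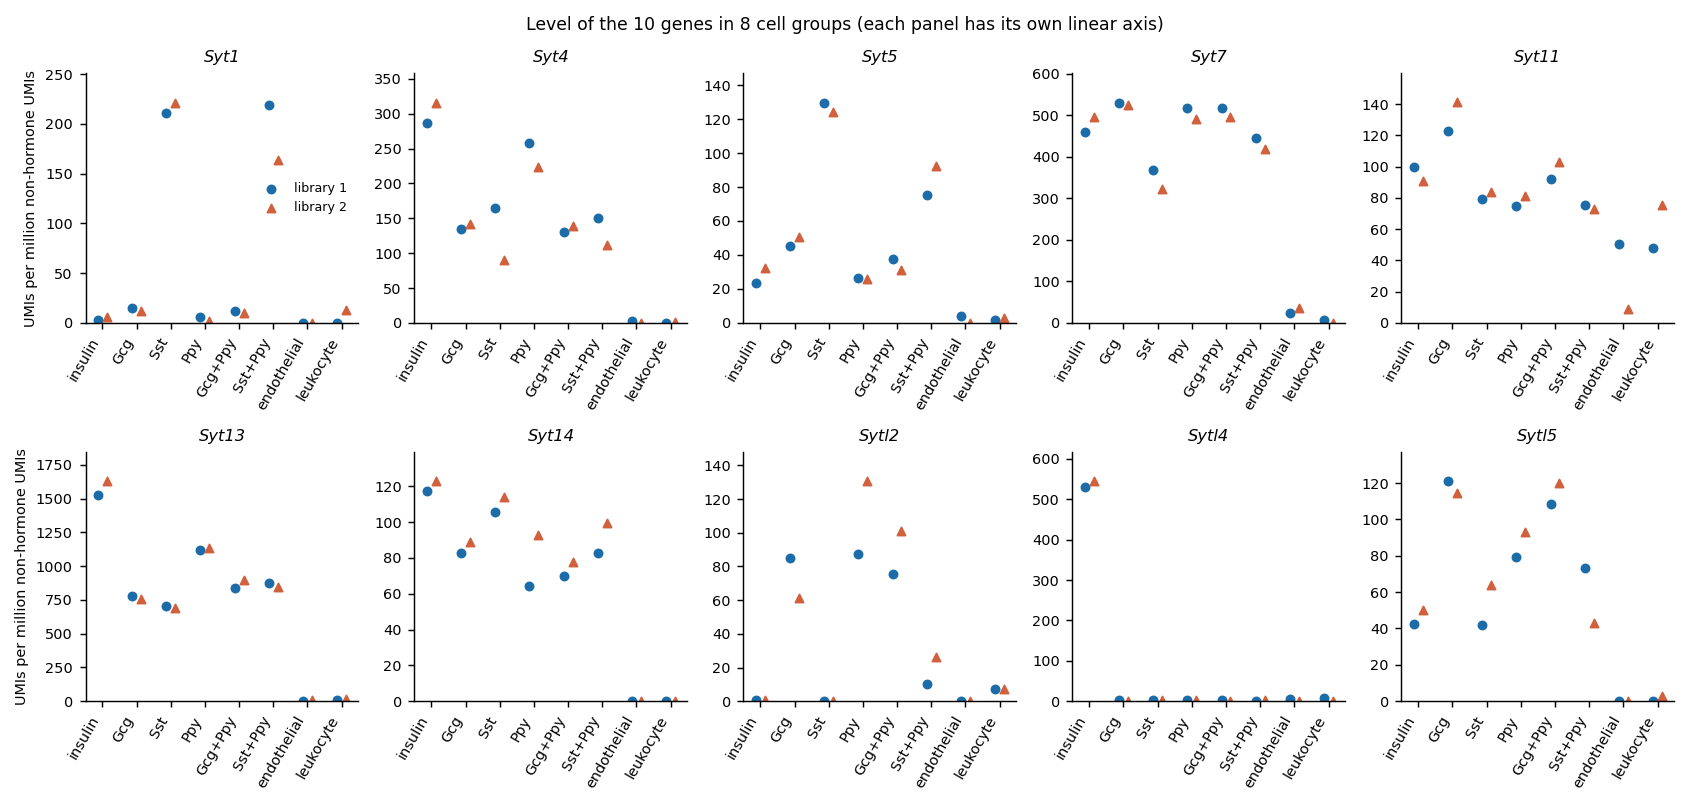
Level of each of the 10 genes, in CPM on a linear axis of its own, in 6 hormone groups and 2 groups of cells without a hormone. Circles are library 1 and triangles library 2. Sytl4 stood at 530 and 545 in insulin only cells and at or below 7.23 in the other 7 groups shown, Syt1 was highest in the groups with Sst, and Sytl2 was highest in those with Gcg or Ppy and without Sst.

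Counts were summed per cell group and library and tested with edgeR in 1 fit of 20 sums over 14331 genes, all 10 members included. Between insulin only and Gcg only cells, 4 of the 10 members passed an adjusted p of 0.05, against 19.1% of all genes tested. Sytl4 and Syt13 were higher in insulin only cells, and Sytl2 and Sytl5 were higher in Gcg only cells. Insulin only against Sst only cells gave 4 of 10 (11.9% of all genes), with Sytl4 and Syt13 higher and Syt1 and Syt5 lower in insulin only cells. Insulin only against Ppy only cells gave 3 of 10 (15.2% of all genes), namely Sytl4 and Syt14 higher and Sytl2 lower. Gcg only against Sst only cells gave 3 of 10 (9.89%), with Sytl2 and Sytl5 higher and Syt1 lower in Gcg only cells. Sst only against Ppy only cells gave 4 of 10 (6.49%), with Syt1 and Syt5 higher and Sytl2 and Syt13 lower in Sst only cells. Gcg only against Ppy only cells gave 0 of 10 (5.72%). At an unadjusted p under 0.05 lay 3 of the 10 members and 2477 of the 14331 genes tested. DESeq2 also called 0 of 10 in this comparison, beside 1272 of 14331 genes. Other alternatives differed: no filter on low counts called Syt1, Syt4, Syt11 and Syt13, beside 1209 of 31786 genes. Leaving out the 5% deepest cells called Syt1, Syt4 and Sytl5, beside 868 of 13360 genes.

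Cells that fell in neither marked group entered the same fit and held 1 barcode that stood apart. The deepest barcode of library 2 had 177513 UMIs, reached no hormone threshold and lay among the 19 and 20 cells that fell in neither marked group. It held 450 of the 678 Syt11 UMIs, 116 of the 175 Syt4 UMIs and 66 of the 102 Syt1 UMIs of those cells in library 2. It also had 1001 UMIs of 7 endocrine granule and transcription factor genes, and 41 of 3 glial genes. In a fit chosen after seeing the data, without these cells and without cells that combine insulin with another hormone, 35 of the 60 member comparisons passed in place of 18. A planned fit without the 5% deepest cells also left out this barcode and kept all 10 groups. Among calls it added were Syt4 and Syt1 between insulin only and Gcg only cells (edgeR adjusted p = 0.000112 and 0.0079). Syt14 between insulin only and Ppy only cells was lost there (edgeR adjusted p = 0.0767). No fit left out this barcode alone, so its part in these changes was not tested. The fit chosen after seeing the data called 8 members between insulin only and Gcg only cells (27% of all genes), 6 between insulin only and Sst only (15%), 5 between insulin only and Ppy only (21.8%), 5 between Gcg only and Sst only (13.2%), 5 between Gcg only and Ppy only (11.1%) and 6 between Sst only and Ppy only (9.83%).

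**Figure D2:**
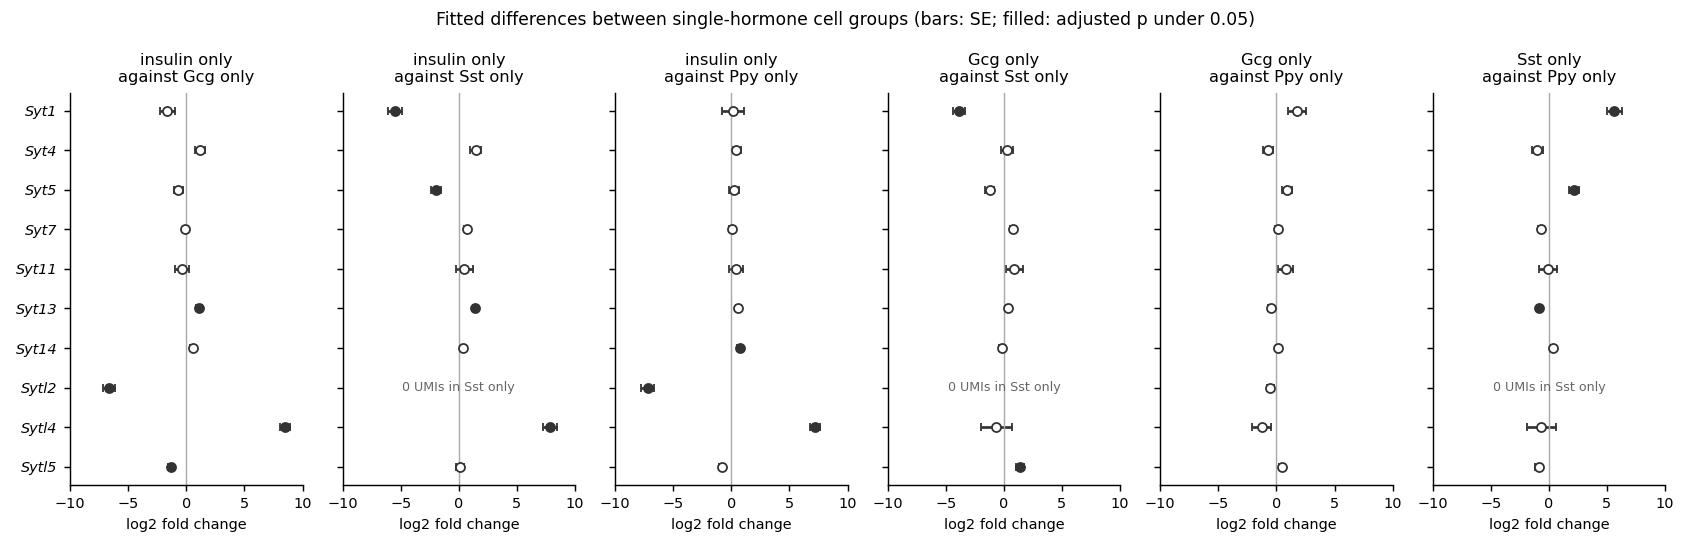
Fitted log2 fold change of each gene in the 6 comparisons of single-hormone groups, positive where the group named first is higher. Bars are the SE and filled points passed an adjusted p of 0.05. Of the 18 calls among 60 comparisons, 2 are not drawn as points, since the 3 Sytl2 comparisons with Sst only cells, which had 0 UMIs, carry a note instead. Sytl4 lies to the right in all 3 comparisons of insulin only cells, and Syt1 lies toward the Sst side in all 3 comparisons of Sst only cells.

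Of the synaptotagmin-like genes, Sytl4 codes for granuphilin, which docks insulin granules at the cell membrane. The gene lies at chrX:133936385-133981812 (GRCm38, minus strand). Insulin only cells had 530 CPM in library 1 and 545 in library 2, or 538 ± 10.9 (SD, n = 2). Gcg only cells had 2.29 and 0.71 CPM, Sst only cells 2.20 and 3.35, and Ppy only cells 3.44 and 4.10. Both insulin only libraries lay above every library of the other 3 groups. The log2 fold change was 8.48 ± 0.45 (SE) against Gcg only cells (edgeR adjusted p = 5.55e-10). Against Ppy only cells it came to 7.20 ± 0.43 (edgeR adjusted p = 4.54e-09). Sst only cells held 2 UMIs of Sytl4 in all, which gives a ratio of 202 with a 95% counting interval from 56.0 to 1672 (edgeR adjusted p = 7.99e-08).

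The 250 bases before the RefSeq start of Sytl4 (GRCm38.p6, chrX:133981813-133982062, minus strand) are shown because this gene's level separated insulin only cells from all other hormone groups. Of 4 motifs searched on both strands, CANNTG (the E-box of bHLH factors), TAAT (a homeodomain core), GGGCGG and TATAAA, this window holds none. They occur in 66.2%, 54.9%, 32.7% and 12.4% of 32851 promoters of the same length.
Sytl4: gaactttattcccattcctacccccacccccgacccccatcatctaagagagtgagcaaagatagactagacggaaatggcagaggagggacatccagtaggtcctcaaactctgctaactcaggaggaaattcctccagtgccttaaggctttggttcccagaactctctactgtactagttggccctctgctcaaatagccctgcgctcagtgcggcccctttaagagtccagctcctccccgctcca

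Sytl2 codes for Slp2-a, which has been linked to glucagon granules. It lies at chr7:90302252-90410719 (plus strand). Its level was 85.3 and 61.3 CPM in Gcg only cells and 87.7 and 131 CPM in Ppy only cells, against 0.74 and 0.42 in insulin only cells. Sst only cells had 0 UMIs in either library, which allows up to 6.59 and 10.1 CPM. Library 1 was the higher one in Gcg only cells and library 2 in Ppy only cells. These groups did not overlap, but their difference of -0.55 ± 0.30 (log2, SE) did not pass (edgeR adjusted p = 0.391). Gcg only cells were 123-fold above insulin only cells (95% counting interval 41.9 to 601, from 397 and 3 UMIs, edgeR adjusted p = 3.04e-07). Ppy only cells were 192-fold above them (65.1 to 936, from 325 and 3 UMIs, edgeR adjusted p = 2.37e-07). With a floor of 3 counts over the Sst only group, the level was at least 18.3-fold higher in Gcg only cells (edgeR adjusted p = 6.69e-05) and at least 28.4-fold higher in Ppy only cells (edgeR adjusted p = 3.46e-05).

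Sytl5, a further Rab27-binding member of that family at chrX:9885622-9994543 (plus strand), stood at 121 and 114 CPM in Gcg only cells. Insulin only cells had 42.4 and 50.1 CPM, Sst only cells 41.8 and 63.7, and Ppy only cells 79.1 and 93.2. Gcg only cells were the highest of the 4 groups in both libraries, while insulin only and Sst only cells overlapped. The log2 fold change of insulin only against Gcg only cells was -1.28 ± 0.25 (SE, edgeR adjusted p = 0.00159), and that of Gcg only against Sst only cells was 1.38 ± 0.32 (edgeR adjusted p = 0.00914). Both calls were lost with an equal number of cells per sum (adjusted p = 0.185 and 0.132). Against Ppy only cells, insulin only cells differed by -0.80 ± 0.26 (edgeR adjusted p = 0.0517), which passed in 7 of 10 alternative fits.

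Among the calcium-binding synaptotagmins, Syt1, the sensor for fast transmitter release at synapses, was highest in cells with Sst. The gene lies at chr10:108497650-109010982 (minus strand) and overlaps Gm5136 and Gm47477 on its strand and Gm47472 on the other, so reads there are uncertain. Sst only cells had 211 and 221 CPM, and Sst and Ppy cells 219 and 164 CPM. Insulin only cells had 2.58 and 5.47 CPM, Gcg only cells 14.5 and 11.7, and Ppy only cells 6.02 and 2.35. Sst only and Sst and Ppy cells lay above every library of the insulin only, Gcg only, Ppy only and Gcg and Ppy groups. Sst only cells were higher by 5.62 ± 0.66 (log2, SE) than Ppy only cells (edgeR adjusted p = 3.81e-05). The log2 fold change was -5.49 ± 0.60 for insulin only against Sst only cells (edgeR adjusted p = 1.09e-05) and -3.85 ± 0.51 for Gcg only against Sst only cells (edgeR adjusted p = 8.65e-05). At the low end, the log2 fold change of insulin only against Gcg only cells was -1.63 ± 0.66 (edgeR adjusted p = 0.102), which passed in 3 of 10 alternative fits.

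RefSeq gives Syt1 more than 1 start. The 250 bases before the upstream start (GRCm38.p6, chr10:109010976-109011225) and before a downstream one (chr10:109009112-109009361), both on the minus strand, are shown because Syt1 marked the Sst groups. Capitals mark CANNTG and TAAT, the latter also as ATTA. The upstream window holds 0 CANNTG, 2 TAAT and 1 GGGCGG, and the downstream one 3, 3 and 0. Which start these cells used cannot be read from counts per gene.
Syt1 upstream: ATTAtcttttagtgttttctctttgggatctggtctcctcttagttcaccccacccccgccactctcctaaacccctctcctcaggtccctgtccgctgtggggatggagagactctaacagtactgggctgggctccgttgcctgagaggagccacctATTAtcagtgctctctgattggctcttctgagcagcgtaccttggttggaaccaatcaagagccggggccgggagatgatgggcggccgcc
Syt1 downstream: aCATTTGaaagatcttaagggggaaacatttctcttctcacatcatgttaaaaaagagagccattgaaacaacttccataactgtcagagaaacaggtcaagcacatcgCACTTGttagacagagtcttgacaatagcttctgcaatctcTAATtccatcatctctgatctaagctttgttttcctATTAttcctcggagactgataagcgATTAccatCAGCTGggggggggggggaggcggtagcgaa

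Syt5, a calcium sensor of dense-core granules at chr7:4539765-4547541 (minus strand), was also highest in Sst only cells. They had 130 and 124 CPM, against 23.6 and 32.4 in insulin only cells, 45.3 and 50.6 in Gcg only cells and 26.6 and 25.8 in Ppy only cells. Both Sst only libraries lay above all libraries of the other hormone groups. Syt5 differed by -1.94 ± 0.42 (log2, SE) between insulin only and Sst only cells (edgeR adjusted p = 0.0053) and by 2.14 ± 0.45 between Sst only and Ppy only cells (edgeR adjusted p = 0.00644). The former call was lost with an equal number of cells per sum (adjusted p = 0.114). Insulin only against Gcg only cells gave -0.71 ± 0.39 (edgeR adjusted p = 0.229), which passed in 1 of 10 alternative fits. The difference between Gcg only and Sst only cells, -1.22 ± 0.41, had an edgeR adjusted p of 0.0697 and passed in 6 of 9 alternative fits.

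Syt7, the high-affinity calcium sensor of insulin and glucagon release, was spread over all hormone groups. It lies at chr19:10389090-10453180 (plus strand), with Gm26859 on the other strand and AC124169.1 on its own. Insulin only cells had 460 and 497 CPM, Gcg only cells 531 and 525, Sst only cells 369 and 322, and Ppy only cells 517 and 491. Sst only cells were the lowest in both libraries. No pair of single-hormone groups passed the test. The nearest was Gcg only against Sst only cells at 0.79 ± 0.26 (log2, SE, edgeR adjusted p = 0.0622), which passed in 5 of 9 alternative fits with adjusted p from 0.00199 to 0.195 over all of them.

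The remaining synaptotagmins bind calcium weakly or not at all. Syt13, on chr2:92915098-92956058 (plus strand), had 1527 and 1631 CPM in insulin only cells and 1116 and 1133 in Ppy only cells. Gcg only cells had 780 and 758 CPM and Sst only cells 703 and 691. The 4 groups did not overlap. The log2 fold change of insulin only cells was 1.10 ± 0.23 (SE) against Gcg only cells (edgeR adjusted p = 0.00229) and 1.43 ± 0.24 against Sst only cells (edgeR adjusted p = 0.000621), and both calls held in all alternative fits run. Against Ppy only cells it was 0.60 ± 0.23 (edgeR adjusted p = 0.0979). Sst only against Ppy only cells gave -0.83 ± 0.24 (edgeR adjusted p = 0.0447), a call lost in 4 of 9 alternative fits with adjusted p up to 0.151.

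Syt4, which regulates granule fusion in maturing beta cells, lies on chromosome 18 with Gm26658 on the other strand. It stood at 287 and 316 CPM in insulin only cells and at 259 and 224 in Ppy only cells, above 135 and 141 in Gcg only cells. The difference of Gcg only from Ppy only cells, -0.76 ± 0.43 (log2, SE), did not pass (edgeR adjusted p = 0.402). Sst only cells had 165 and 90.5 CPM and spanned the Gcg only range. Insulin only cells were above Gcg only cells by 1.19 ± 0.42 (log2, SE, edgeR adjusted p = 0.0583) and above Sst only cells by 1.44 ± 0.48 (edgeR adjusted p = 0.0635). Neither passed. Without the mixed groups described above, these differences were 1.16 ± 0.17 (edgeR adjusted p = 1.22e-05) and 1.33 ± 0.21 (edgeR adjusted p = 9.78e-05).

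Syt14 (chr1:192891233-193035775, minus strand, with Gm23583 inside it on the same strand) binds no calcium and had 117 and 123 CPM in insulin only, 82.7 and 88.9 in Gcg only, 105 and 114 in Sst only and 64.5 and 92.6 in Ppy only cells. Insulin only cells were the highest in both libraries. The difference from Ppy only cells was 0.70 ± 0.20 (log2, SE, edgeR adjusted p = 0.0282), which was lost in 4 of 10 alternative fits. The difference from Gcg only cells, 0.55 ± 0.20 (edgeR adjusted p = 0.0627), passed in 2 of 10. Syt11, which acts in membrane retrieval, lies at chr3:88744700-88775164 (minus strand) and had 123 and 141 CPM in Gcg only cells. The other single-hormone groups lay between 74.8 and 100 CPM, below both Gcg only libraries. No Syt11 comparison of single-hormone groups passed, with fitted log2 differences of 0.88 ± 0.74 (SE) against Sst only and 0.80 ± 0.63 against Ppy only cells (edgeR adjusted p = 0.55 and 0.604). The latter was 0.78 ± 0.22 without the mixed groups (edgeR adjusted p = 0.0252).

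Cells with 2 hormones were compared with Gcg only or Sst only cells, by the hormone they shared. They were not compared with Ppy only cells, and which single-hormone group lay nearest was not tested. For Gcg and Ppy cells against Gcg only cells, 0 of 10 members passed, against 0.0209% of all genes (3 genes). Fitted differences ran from -0.53 to 0.23 on the log2 scale, and the lowest unadjusted p was 0.211. At an unadjusted p under 0.05 lay 0 members and 490 of the 14331 genes tested. For Sst and Ppy cells against Sst only cells, 0 of 10 passed, as did 0 of all genes (0%). An unadjusted p under 0.05 was found for 699 of the 14331 genes tested. DESeq2 called 2 genes there. Sytl2 had 0 UMIs in Sst only cells and 10.2 and 26.5 CPM in Sst and Ppy cells (edgeR adjusted p = 0.902, with its unadjusted p under 0.05), where 3 cells held 50% of its 40 UMIs. With no filter on low counts it passed (edgeR adjusted p = 0.00548), the only call in 9 alternative fits. The other 9 members differed by -0.54 to 0.38, with 0 of them at an unadjusted p under 0.05. These tests do not show that the members were alike.

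Cells in which insulin and another hormone reached the threshold (37 and 27) held Sytl4 at 224 and 313 CPM, between the insulin only level and the near-zero levels elsewhere. In the 19 and 17 of them with Sst and no Gcg, Sytl4 was at 335 and 441 CPM and Syt1 at 68.5 and 38.9. Few cells carried much of this. Over all 37 and 27 cells, the top 3 cells for each gene held 59.6% of the 47 Syt1 UMIs and 36.6% of the 339 Sytl4 UMIs, with 13 and 71 in the highest cell. At least 1 UMI of each was found in 10 of 37 cells in library 1 and 4 of 27 in library 2. In insulin only cells the share was 2.20% and 4.21%. The 12 and 8 cells with insulin and Ppy alone had less Sytl4, 39.4 and 39.0 CPM. No doublet caller was run, so pairs of cells under 1 barcode cannot be told apart from cells with both hormones.

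Cells without a hormone gave the background for each gene. Of the 10 members, 7 were higher in single-hormone cells than in endothelial- and leukocyte-marked cells, and 0 were lower, where 55.1% of all genes tested passed and 31.6% were higher. Syt13 had 2.10 and 7.02 CPM in endothelial-marked cells and 11.6 and 14.0 in leukocyte-marked cells. The difference came to 6.83 ± 0.26 on the log2 scale (edgeR adjusted p = 1.02e-12). Syt14 had 0 UMIs in both marked groups, and insulin only cells were at least 41.8-fold above the endothelial-marked and at least 56.2-fold above the leukocyte-marked cells. The other 5 were Syt1, Syt4, Syt5, Syt7 and Sytl5, with edgeR adjusted p of 0.0143 or less. Sytl4 (1.72 ± 0.77 on the log2 scale, edgeR adjusted p = 0.0651), Sytl2 and Syt11 (edgeR adjusted p = 0.106) did not pass. Sytl2 had 0 UMIs in Sst only and endothelial-marked cells, so its difference has no usable estimate (SE 4009). The contrast averages 4 groups on the log scale, so it cannot judge a gene high in only some of them. In the marked groups, Sytl4 and Sytl2 were each at or below 7.23 CPM, far under their highest hormone groups given above. Without the mixed groups, Sytl4 (edgeR adjusted p = 0.0405) and Syt11 (edgeR adjusted p = 0.000237) passed, and Sytl4 passed in 5 of 9 alternative fits in all.

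Syt11 was also found outside the hormone groups. Leukocyte-marked cells had 47.7 and 75.6 CPM. Endothelial-marked cells had 50.4 CPM in library 1 and 8.78 in library 2, with 11 of all 29 UMIs in 1 cell. The summed level of 4 stellate cell markers in these cells was 4291 CPM in library 1 and 112 in library 2, and its part in the Syt11 difference was not tested. Syt7 was at 23.1 and 36.9 CPM in endothelial-marked cells. All 9 Syt1 UMIs of leukocyte-marked cells came from library 2 and from 1 cell.

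To compare shares of cells at 1 depth, each cell was thinned to 3000 non-hormone UMIs, which left out 0 cells. Sytl4 was then found in 68.1% (exact 95% interval 60.8% to 74.8%) and 66.8% (59.7% to 73.5%) of insulin only cells, and in 87.9% and 86.3% before thinning. Thinned Gcg only cells with a Sytl4 UMI made up 1.10% and 0%, and Sst only cells 0% in both libraries, which allows up to 14.8% among the 23 cells of library 2. The share was 0% in both marked groups in each library, and before thinning 6.90% of endothelial-marked and 6.98% of leukocyte-marked cells of library 1 had a Sytl4 UMI and 0% of those of library 2. Median depths were 11753 and 10187.5 non-hormone UMIs in insulin only cells and 14942 and 15966 in endothelial-marked cells. Intervals cover counting error only.

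Syt1 was found in 42.9% and 39.1% of thinned Sst only cells and 48.1% and 40.8% of Sst and Ppy cells. In insulin only, Gcg only and Ppy only cells its share was 0.53% to 3.45%. It was 0% in endothelial-marked cells of both libraries, and 0% and 2.38% in leukocyte-marked cells, the latter being the 1 cell with all 9 UMIs. Before thinning, 13.7% and 12.6% of Gcg only cells had a Syt1 UMI, at median depths of 12693 and 14559.5 non-hormone UMIs, and the endothelial-marked share was still 0%. The summed Gcg only level was at least 4.54-fold above that of endothelial-marked cells. Syt13 reached 98.4% and 99.5% of insulin only cells and 85.7% to 95.6% of the other single-hormone groups. Its shares in endothelial-marked cells were 0% and 3.33%. A thinned insulin only cell had a median of 3 members in library 1 and 4 in library 2, and the median was 0 in both marked groups. Sytl2 was seen in 19.8% and 13.8% of Gcg only cells and in 16.7% and 30.9% of Ppy only cells, so most cells of these groups had none at this depth.

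**Figure D3:**
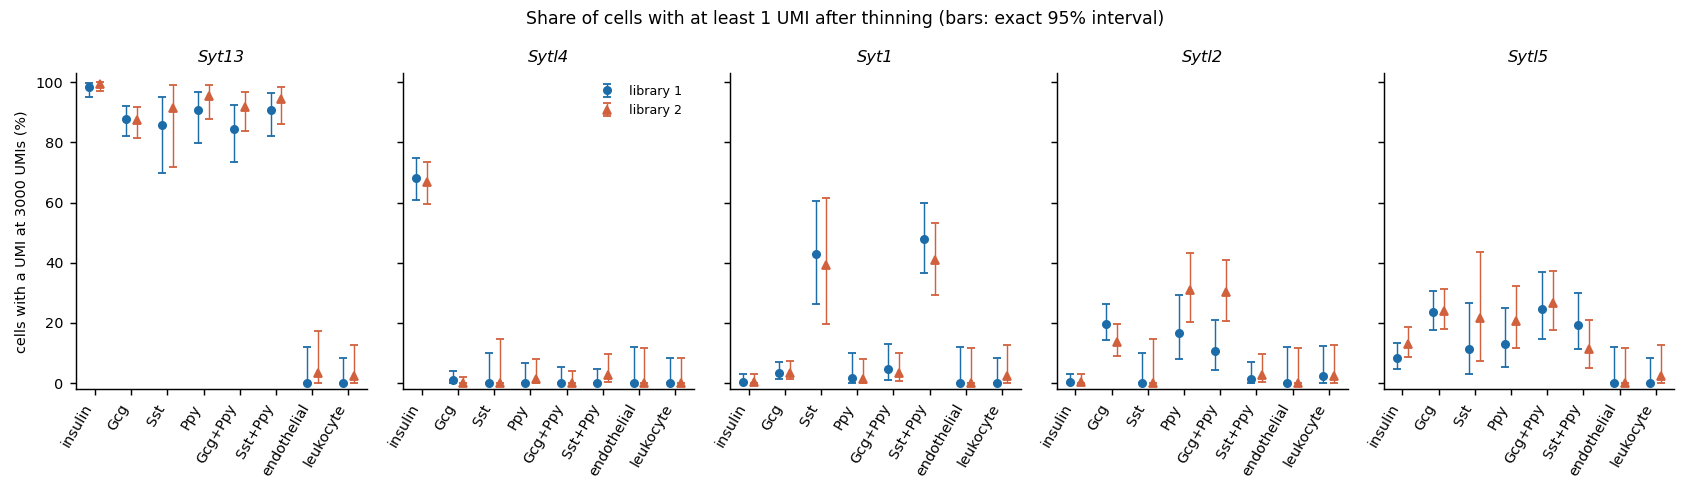
Percentage of cells with at least 1 UMI of Syt13, Sytl4, Syt1, Sytl2 or Sytl5 after thinning to 3000 non-hormone UMIs, by cell group. Circles are library 1, triangles library 2, and bars the exact 95% interval. Syt13 lay at or above 84.6% in all 6 hormone groups, Sytl4 reached 68.1% and 66.8% in insulin only cells and at most 2.82% in the other 7 groups shown, and Syt1 stood out in the groups with Sst.

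Insulin only cells also varied among themselves. They were ordered by the share of insulin in their UMIs and split into 3 parts of equal size in each library, with median shares of 29.9% and 32.6% in the lowest part and 48.2% and 52.3% in the highest. Sytl4 was at 317 and 375 CPM in the lowest part, 714 and 679 in the middle and 643 and 647 in the highest. Both libraries thus had the lowest Sytl4 level where insulin took the smallest share. Syt13 was at 1297 and 1397 CPM in the lowest part, 1607 and 1768 in the middle and 1811 and 1842 in the highest. Syt4 was at 248 and 267, 301 and 314, and 335 and 407 CPM in the same order. Syt7 had no such order, with 475 and 538 CPM in the lowest part and 465 and 486 in the highest. The median number of non-hormone UMIs per cell fell along the same order, from 15484 and 13240.5 to 8958 and 7448, and its part in these values was not tested. The parts share their libraries, so these values are a description with no test.

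**Figure D4:**
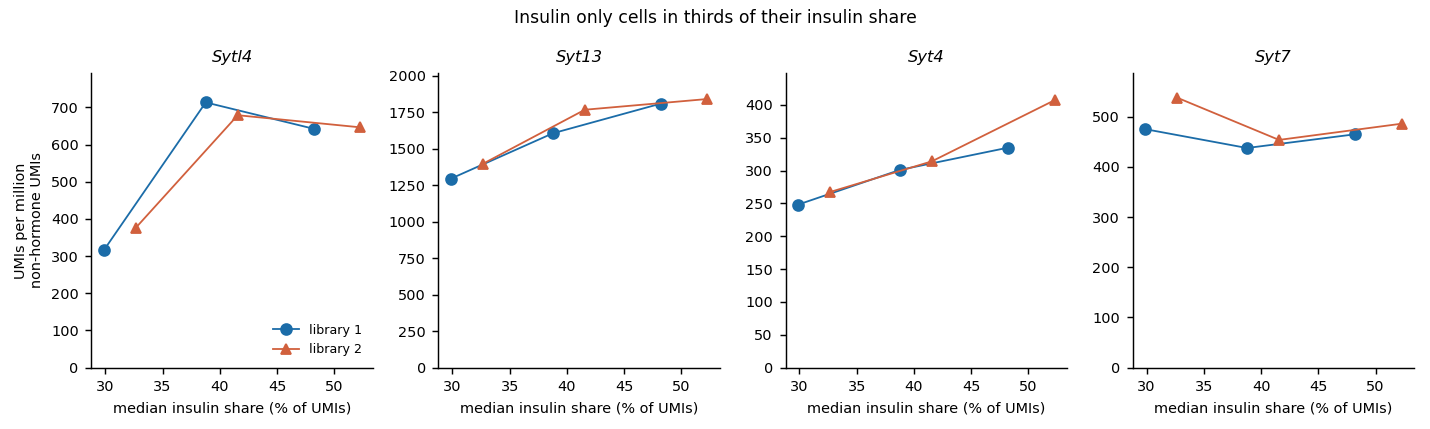
Level of Sytl4, Syt13, Syt4 and Syt7 (CPM) in insulin only cells against the median insulin share of 3 equal parts of these cells. Circles are library 1 and triangles library 2. Sytl4 was 317 and 375 in the lowest part and at least 643 in the other parts, whereas Syt7 stayed between 438 and 538.

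Of 20 other genes of the wider C2-domain family, 13 passed the filter on low counts. Between insulin only and Gcg only cells, 2 were higher and 2 lower in insulin only cells, where 19.1% of all genes tested passed. Esyt1, a tether between endoplasmic reticulum and cell membrane, had 116 and 143 CPM in insulin only cells and 61.3 and 53.5 in Gcg only cells (edgeR adjusted p = 0.000214). Sytl1, another Rab27-binding relative, had 32.8 and 52.2 CPM against 14.1 and 11.7 (edgeR adjusted p = 0.00458). Syt9, a calcium sensor close to Syt1, had 12.5 and 13.5 CPM against 39.2 and 42.9 (edgeR adjusted p = 0.0344), and Syt16 was also lower (edgeR adjusted p = 0.00166). The list's median log2 fold change was -0.21, and that of all genes was 0.02. Toward Sst only cells, Syt6 had 0 UMIs in insulin only and Gcg only cells and 19.8 and 20.1 CPM in Sst only cells (edgeR adjusted p = 0.0428 and 0.0425). Syt17 was also higher in Sst only than in insulin only cells, with 17.6 and 26.8 CPM against 1.11 and 0.42 (edgeR adjusted p = 0.0203).

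Of 41 genes of the exocytosis machinery, 37 were tested, and 10 were higher and 4 lower in insulin only than in Gcg only cells, beside the 19.1% of all genes that passed there. Rab27b, a GTPase to which synaptotagmin-like proteins bind, had 12.6 and 10.3 CPM in Gcg only cells and 17.2 and 27.0 in Ppy only cells. In cells without a hormone that fell in neither marked group it had 125 and 82.3 CPM. It had 1 UMI in all insulin only cells (edgeR adjusted p = 0.000146 against Gcg only cells) and 0 in Sst only cells (edgeR adjusted p = 0.016 against Gcg only cells). These were the groups in which Sytl2 had 3 and 0 UMIs. Levels of Rab27a, which synaptotagmin-like proteins also bind, are not given here. Mlph, another Rab27 effector, had 30.6 and 21.1 CPM in insulin only cells and 1 UMI in all Gcg only cells (edgeR adjusted p = 0.000263), with 0 in Sst only and Ppy only cells. Rims3, of an active-zone family that binds Rab3, had 146 and 167 CPM in insulin only cells and at most 11.1 in the other single-hormone groups. For Gcg only cells the edgeR adjusted p was 5.22e-06.

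In Sst only cells, Cadps was lower and Rab3b and Stxbp5l were higher than in the other single-hormone groups, with all these calls past the threshold. Cadps, a factor that primes dense-core granules, had 4.39 and 0 CPM there, against 237 and 218 in insulin only, 267 and 249 in Gcg only and 204 and 198 in Ppy only cells. Gcg only cells were 97.0-fold above Sst only cells (95% counting interval 26.8 to 802, edgeR adjusted p = 4e-06). Rab3b, a granule GTPase, had 288 and 245 CPM in Sst only cells and at most 76.2 in the other single-hormone groups. Its log2 fold change in insulin only against Sst only cells was -1.72 ± 0.27 (SE, edgeR adjusted p = 0.000397). Stxbp5l, a tomosyn that binds syntaxin, had 246 and 221 CPM in Sst only cells and at most 45.5 elsewhere among these groups. Rab3c had 204 and 198 CPM in Gcg only cells and 10.7 and 5.47 in insulin only cells (edgeR adjusted p = 0.00027). Of the 37 genes, 25 were higher and 3 lower in single-hormone cells than in the marked cells without a hormone, where 55.1% of all genes passed and 31.6% were higher. Snap25, a fusion SNARE, was among those higher (edgeR adjusted p = 1.44e-06).

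**Figure D5:**
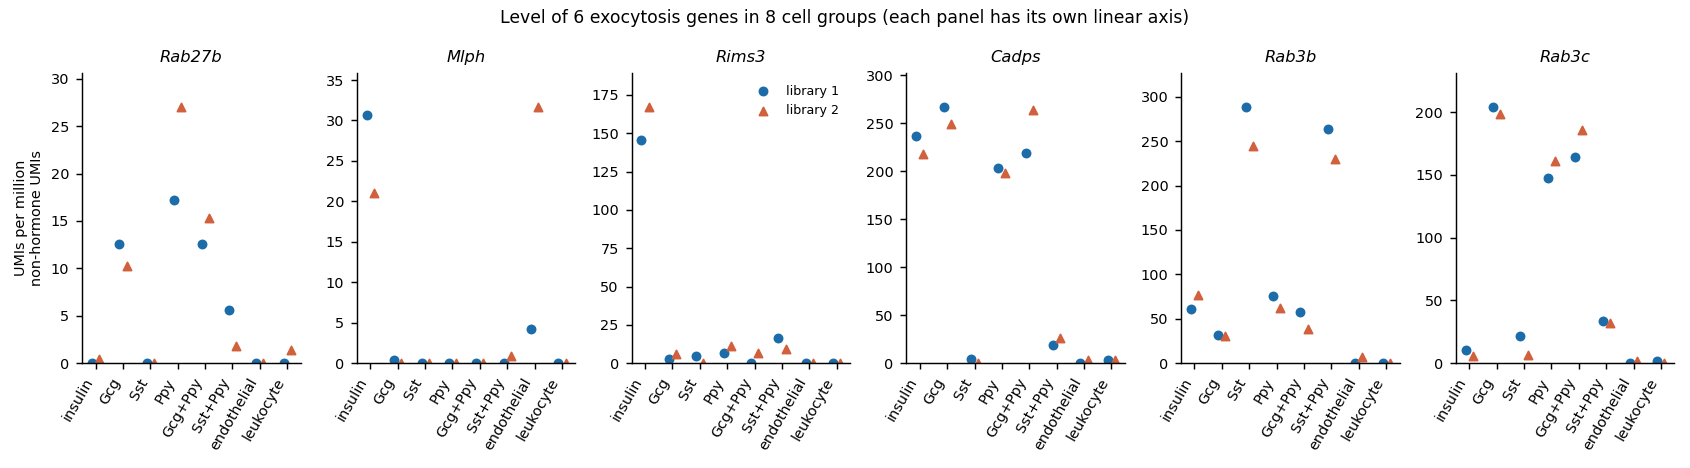
Level of Rab27b, Mlph, Rims3, Cadps, Rab3b and Rab3c (CPM, each on a linear axis of its own) in 8 cell groups. Circles are library 1 and triangles library 2. Rab27b had 1 UMI in insulin only and 0 in Sst only cells, Cadps was at 4.39 and 0 in Sst only cells, and Mlph and Rims3 were highest in insulin only cells among the hormone groups.

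The genes whose levels ran most alike to each member were found by Pearson's r of log2(CPM + 1) over the 20 sums, among 8815 genes. The sums share libraries and cells without a hormone at near 0, so r is a description. For Syt1 these were Dpp6 (r = 0.91), Caly (0.90) and Spock3 (0.90). For Sytl4 they were Trpm5 (0.95), G6pc2 (0.92) and Mafa (0.92), with Spearman's rho of 0.68, 0.55 and 0.25. Galnt13 (r = 0.90) and Selenoi (0.90) were among the genes most like Sytl2. Syt13 was paired with A230057D06Rik (0.99), Ptprn2 (0.99) and the incretin receptor gene Gipr (0.99). Syt14 also had Ptprn2, a granule membrane protein, as its nearest gene (r = 0.99). The nearest genes were Kif1a for Syt4 (0.98), Igsf9b for Syt5 (0.96), Ptov1 for Syt7 (0.98), Kif5a for Syt11 (0.86) and Zim1 for Sytl5 (0.98). By Spearman's rho several of these pairs were lower, with Kif5a at 0.57 (place 365 among the genes compared with Syt11), Ptov1 at 0.74 (place 426 for Syt7) and, for Syt13, Ptprn2 at 0.77 (place 416) and A230057D06Rik at 0.83 (place 218). Gipr held place 3 for Syt13 on both measures.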

How the data were processed

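The deposited values are raw UMI counts by gene and barcode, 1 table for each library. Per the methods, the Cytonaut software kept barcodes above a knee found with UMI-tools, aligned reads to exons alone, deduplicated them and assigned them to Ensembl genes on GRCm38. Intronic reads and empty barcodes therefore do not enter the values, and whether counting used strand is not given in the sources used here. Of 33038 gene identifiers, 32971 (99.8%) were found in GENCODE M21, which gave the coordinates. Promoters came from a RefSeq table on GRCm38.p6.

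No cell was removed, and no doublet caller was run. The shallowest cells had 4704 UMIs in library 1 and 5032 in library 2. Groups came from 5 hormone genes at 1% of UMIs, and the marked groups from at least 10 marker UMIs. The hormone genes were then left out of all totals. Counts were summed over each group with at least 15 cells in both libraries, which left out cells with Gcg and Sst (12 and 17). The 20 sums, of 298300 to 2823605 UMIs, went into an edgeR 4.0.16 fit (R 4.3.3) with these settings (TMM, filterByExpr, glmQLFit, glmQLFTest, Benjamini-Hochberg over 14331 genes, threshold 0.05, 10 residual degrees of freedom). The test was first tried on simulated counts with a lower dispersion than the 0.0349 of the data. Changes were placed in insulin only cells alone, in genes with higher counts. That trial does not show how the test behaves for low counts or small groups. DESeq2 1.42.0, other scalings, filters, hormone thresholds, cell subsets and the library as a block were alternatives. Shares used Python 3.11.15 and scipy 1.17.1 with exact Clopper-Pearson intervals. A count of 0 was taken to allow 3 counts.

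All 10 members were tested and counted in every comparison. From the lists of related and exocytosis genes, up to 3 genes in each direction with an adjusted p under 0.05 and an absolute log2 fold change above 1 could be named, and of the 3 genes most like each member whose highest group reached 50 CPM, 1 to 3 are named, except 1 gene that is not reported here. The members and lists were chosen with earlier results of these data known.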

Additional observations from a re-analysis of the deposited data

How the results depend on the processing

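Of the 25 member calls, 20 held in all alternative fits that could be run, 5 were lost in at least 1, and 0 changed direction. A further 23 comparisons of members passed in at least 1 alternative but not as reported, and leaving out either library turned the direction of 0 calls. Leaving out a library leaves no residual degrees of freedom, so it gives values with no test. With an equal number of cells per sum, the genes called fell to 822 for insulin only against Gcg only, 609 for insulin only against Sst only, 683 for insulin only against Ppy only, 582 for Gcg only against Sst only, 287 for Gcg only against Ppy only, 425 for Sst only against Ppy only, 1 for Gcg and Ppy against Gcg only, and 5191 for single-hormone against marked cells. That setting has fewer cells and tests fewer genes (10844). Without the mixed groups, 1583 genes were called between Gcg only and Ppy only, 1402 between Sst only and Ppy only, 15 between Gcg and Ppy and Gcg only, and 3 between Sst and Ppy and Sst only. DESeq2 gave 1272 for Gcg only against Ppy only, 17 for Gcg and Ppy against Gcg only, and 2 for Sst and Ppy against Sst only. No filter on low counts gave 101 and 49 for the last 2 comparisons, and keeping the hormone genes gave 1 for the last. The cause of these shifts was not tested.

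With DESeq2 size factors, the median of all genes moved by -0.13 (log2) between insulin only and Sst only cells and by -0.12 between Gcg only and Sst only cells. The share of calls that were higher in the first group went from 59.9% to 42.4%, from 51.7% to 37.7%, and, for Sst only against Ppy only cells, from 49.8% to 63.4%.

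The labels number both libraries, and library as a replicate block was fitted as an alternative. Sums with the same number come from the same library. Their deviations had a median r of -0.0012 over 45 pairs of groups (-0.40 to 0.66). This median shows no shift common to most pairs, but it cannot settle whether some groups of a library shift together. The block moved the calls between insulin only and Gcg only cells from 2738 to 2790, added Syt4 there (adjusted p = 0.0496) and added Syt7 between Gcg only and Sst only cells (adjusted p = 0.0485).

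At a threshold of 0.5% of UMIs, Sst only cells fell under 15 in a library and their comparisons were not run. Insulin only cells below and above 10% insulin were not compared, because 2 cells in each library lay below. The depth limits Sytl4, Sytl2 and Syt1 in the groups where they were near 0, and the 35 and 23 Sst only cells limit every value of that group.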
